A study of Mus musculus with 2 samples.

Results

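The miR-17-92 cluster is a group of 6 microRNA (miRNA) hairpins that lie in 1 noncoding transcript, Mir17hg: mmu-mir-17, mmu-mir-18a, mmu-mir-19a, mmu-mir-20a, mmu-mir-19b-1 and mmu-mir-92a-1, written without the species prefix below. Its members were taken by precursor name and made up 6 of the 1187 precursors counted in small RNA of ischemic mouse hindlimb muscle. The study compared a hypercholesterolemic library (HC), from ApoE-/- mice that the series design describes as kept on a high-fat diet, with a normocholesterolemic control library (NC) from C57Bl/6 mice. The diet and age of the control, the age and the background strain of the ApoE-/- mice and the number of animals behind each library are not stated in the labels. Both groups had the femoral artery removed surgically and were sampled 1 day later, so both carry the ischemia, and no non-ischemic muscle was analysed here. Genotype and diet cannot be told apart in this design. Each group held 1 library, so no test was run, and every interval below is a 95% interval of counting error that says nothing of the spread between animals.

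A polycistronic miRNA transcript is cut into separate hairpins by the nuclease Drosha, and Dicer then releases a duplex from each hairpin, of which mostly 1 arm is kept as the mature miRNA. The mature miRNA finds target messages mainly by pairing of its seed, bases 2 to 8 from its 5′ end. Mir17hg is a transcriptional target of the proliferation factors Myc and E2F, and the cluster is best known for promoting growth and survival of dividing cells. Among its products, miR-17 and miR-20a repress the pro-apoptotic Bcl2l11 and the cell cycle inhibitor Cdkn1a, and miR-18a and miR-19 repress the anti-angiogenic Thbs1. miR-92a represses the integrin subunit Itga5 and restrains vessel growth in endothelium, where its inhibition has been studied for recovery from limb ischemia.

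The 6 hairpins spanned 836 bases of chromosome 14 in mm10, on the plus strand within exon 2 of Mir17hg (the gene runs from 115042879 to 115046727 in GENCODE M21). They were separated by gaps of 35 to 96 bases and were 80 to 107 bases long, with a GC content of 43.7% to 47.5%. In order along the transcript they were mir-17 (chr14:115043671-115043754), mir-18a (chr14:115043851-115043946), mir-19a (chr14:115044000-115044081), mir-20a (chr14:115044157-115044263), mir-19b-1 (chr14:115044305-115044391) and mir-92a-1 (chr14:115044427-115044506). All 6 matched a hairpin of RefSeq (GRCm38, the assembly of mm10) at the same coordinates.

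The known main mature product of each hairpin is shown because the cluster divides into 4 seeds, by which the values are described; the seed is in capitals, and the sequences are from RefSeq, 5′ to 3′.
miR-17-5p: cAAAGUGCuuacagugcagguag
miR-20a-5p: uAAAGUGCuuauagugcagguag
miR-18a-5p: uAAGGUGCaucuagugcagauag
miR-19a-3p: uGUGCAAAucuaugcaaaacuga
miR-19b-3p: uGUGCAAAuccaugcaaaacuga
miR-92a-3p: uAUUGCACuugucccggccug

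miR-17-5p and miR-20a-5p shared the seed AAAGUGC and differed at 2 of 23 positions, C1U and C12U, written as the base in miR-17-5p, the position from the 5′ end, and the base in miR-20a-5p. miR-18a-5p differed from miR-17-5p at 6 positions, of which A4G lies in the seed. miR-19a-3p and miR-19b-3p shared the seed GUGCAAA and differed only by U11C over their 23 positions. miR-92a-3p, 21 bases long, carries the seed AUUGCAC and was the richest in G and C among the 6, at 57.1% against 34.8% to 47.8%. The counts in the files are per hairpin and sum both arms, so which arm the reads came from was not measured.

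The HC library held 31198050 counts over all precursors and the NC library 43848576, and levels are given as CPM, counts relative to a library of 1000000 after scaling by the trimmed mean of M-values (TMM). At this scaling a count of 0 allows up to 0.0918 CPM in HC and 0.0717 CPM in NC. Scaling moves every ratio together, by 0.13 on the log2 scale with plain totals, by -0.11 with the denominators behind the authors' RPM column and by -0.21 with all listed counts. A log2 ratio that one of these shifts carries past 0 has no firm direction. The 6 muscle hairpins listed (miR-1, miR-133 and miR-206) summed to 136143 CPM in HC and 135986 CPM in NC. Their detection in both libraries does not test the skeletal muscle label, because every marker listed for other cell types was detected too. By level, the muscle sum lay above that of each other cell type listed, with smooth muscle next at 69344 and 76571 CPM. That order is uncertain, because the muscle sum includes the nearly equal hairpins mir-133a-1 and mir-133a-2, which may share reads. The totals over all precursors may repeat reads too. The overlapping hairpins mir-486a and mir-486b had identical counts in each library, and each lay above the muscle sum in level. Shares of all precursor counts, the plain totals and the comparison across precursors below include both. Their values without such repeats were not computed.

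The cluster as a whole was slightly less abundant in HC. Its 6 hairpins summed to 3149.6 CPM in HC and 3722 CPM in NC, which is 0.330% and 0.355% of all precursor counts, and the sum was 1.18-fold lower in HC. The log2 ratio of HC over NC was -0.24 (-0.25 to -0.23). That value describes mir-92a-1 almost alone, because mir-92a-1 held 95.1% of the cluster's counts in HC and 95.4% in NC. The 4 hairpins whose main mature miRNA has a single locus, mir-17, mir-18a, mir-19a and mir-20a, summed to 75.0 CPM in HC and 74.7 CPM in NC, a log2 ratio of 0.0055 (-0.07 to 0.08). In bulk tissue, fewer cells of a type and less RNA per cell cannot be told apart.

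The levels within the cluster spanned more than 2 orders of magnitude although the hairpins lie in 1 transcript. That span rests on mir-92a-1, whose mature sequence is also produced from chromosome X, so its reads need not come from this transcript. How evenly different miRNAs were captured in the libraries was not measured. In HC, the level per hairpin base was 37.4 CPM for mir-92a-1, 0.922 for mir-19b-1, 0.335 for mir-17, 0.246 for mir-20a, 0.144 for mir-19a and 0.0905 for mir-18a. The order was the same in NC, with 44.4 CPM per base for mir-92a-1 and 0.0752 for mir-18a. Per hairpin base, adjacent members in this order differed beyond counting error in both libraries. The closest neighbours in HC were mir-17 and mir-20a, at a ratio per base of 1.36 (1.24 to 1.499), and in NC mir-20a and mir-19a, also at 1.36 (1.23 to 1.51). In counts without division by length, mir-17 and mir-20a were not resolved in HC, at a ratio of 1.07 (0.975 to 1.18). Their separation in HC thus rests on the division by hairpin length, although their main mature products are both 23 bases long. mir-92a-1, the last hairpin of the transcript, ranked 28th in abundance among all precursors, while mir-18a ranked 234th.

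**Figure D1:**
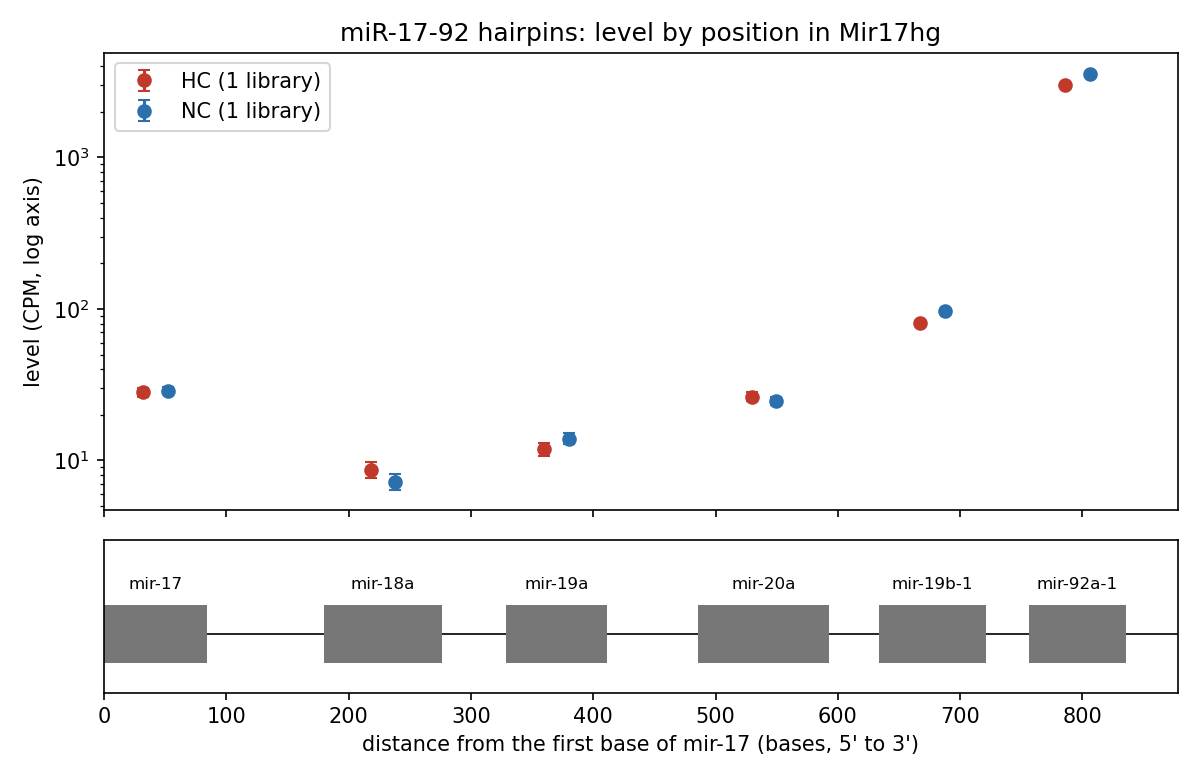
Level of each hairpin in CPM (log axis, points with 95% counting intervals, 1 library per group) against its distance from the first base of mir-17, with the hairpins drawn to scale below. mir-92a-1, at the 3′ end, stands at 2994 CPM in HC and 3551 CPM in NC, and the other 5 hairpins lie below 100 CPM in both libraries.

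The miR-17 seed pair showed no firm difference between the libraries. mir-17 had 921 counts in HC and 1211 in NC, a level of 28.2 CPM (26.4 to 30.1) and 28.9 CPM (27.3 to 30.6). mir-20a, whose mature miRNA shares most of its targets with miR-17, had 860 and 1032 counts, or 26.3 CPM in HC and 24.7 CPM in NC. The log2 ratio of HC over NC was -0.04 (-0.16 to 0.09) for mir-17 and 0.09 (-0.04 to 0.23) for mir-20a. Both intervals hold 0, and the libraries overlap in the counting intervals of both hairpins.

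mir-18a was the hairpin with the highest ratio in the cluster. It had 284 counts in HC and 302 in NC, or 8.69 CPM (7.71 to 9.76) against 7.22 CPM (6.42 to 8.08), a 1.20-fold higher level in HC. Its log2 ratio was 0.27 (0.03 to 0.51), and its mean of 7.95 CPM lay under the 10 CPM needed to enter the comparison across precursors. The counting intervals of the level overlapped between the libraries. The ratio lay above 0 in all 6 scalings tried, from 0.06 with all listed counts as the denominator to 0.40 with plain totals, but its interval held 0 with all listed counts and with the authors' denominators.

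The miR-19 pair was lower in HC by similar amounts. mir-19a had 386 counts in HC and 582 in NC, or 11.8 CPM (10.7 to 13.0) against 13.9 CPM (12.8 to 15.1). mir-19b-1 had 2621 and 4032 counts, or 80.2 CPM (77.2 to 83.3) against 96.3 CPM (93.4 to 99.3), and its libraries did not overlap. The log2 ratio was -0.24 (-0.42 to -0.05) for mir-19a and -0.26 (-0.34 to -0.19) for mir-19b-1. With plain totals the ratios were -0.10 and -0.13, and the interval of mir-19a then held 0.

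mir-92a-1 was 1.19-fold lower in HC. It had 97865 counts in HC and 148639 in NC, or 2994 CPM (2976 to 3013) against 3551 CPM (3533 to 3569), and the libraries did not overlap. The log2 ratio was -0.25 (-0.26 to -0.23), and it stayed below 0 in each scaling, from -0.11 with plain totals to -0.45 with all listed counts. The interval is narrow at this depth and holds for these libraries only.

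Of the 6 hairpins, 5 had a mean of at least 10 CPM and were set beside the 222 precursors at that level. None of the 5 reached a 2-fold difference, which 2.25% of the 222 reached, nor a 1.5-fold difference, which 7.21% reached in either direction. The interval lay below 0 for 3 of the 5 (mir-19a, mir-19b-1 and mir-92a-1) and above 0 for 0, where 43.7% of the 222 lay below and 39.6% above. The median log2 ratio of the 5 was -0.24, beside -0.00074 over the 222, a value that TMM largely sets. By rank, 35 of the 222 had a lower log2 ratio than mir-92a-1, 31 a lower one than mir-19b-1, 37 than mir-19a, 98 than mir-17 and 145 than mir-20a. With plain totals the split was 2 below (mir-19b-1 and mir-92a-1) and 1 above (mir-20a), where 21.2% of the 222 lay below and 60.8% above.

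**Figure D2:**
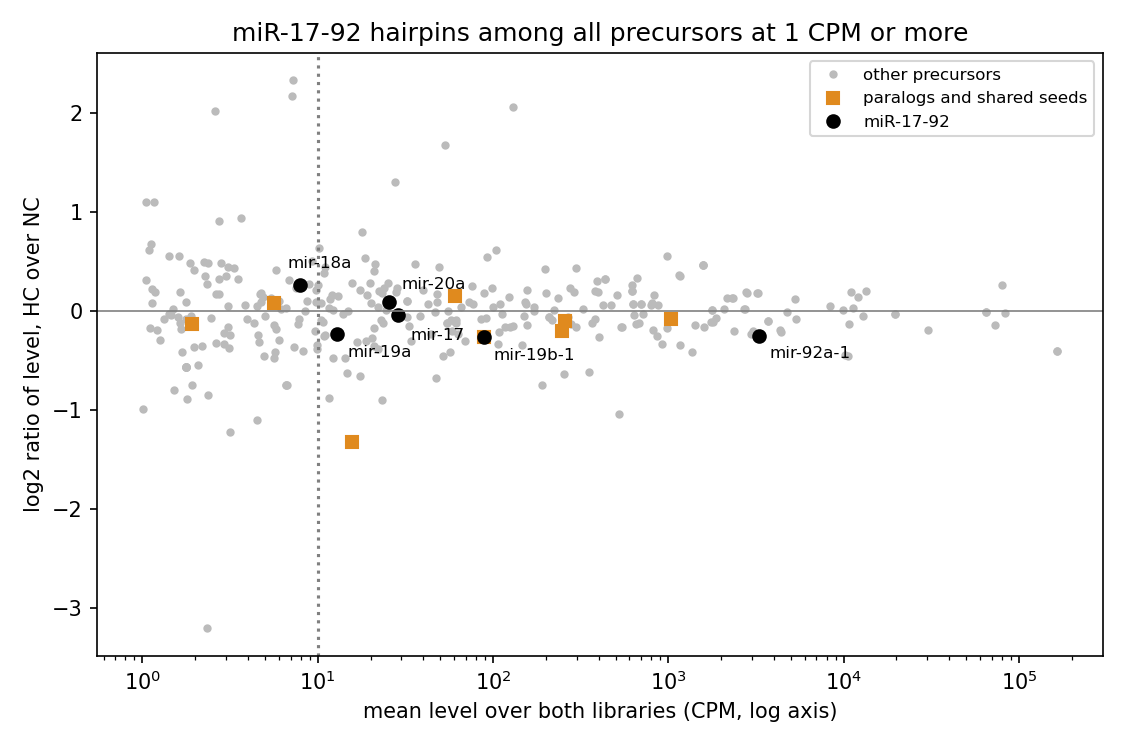
Log2 ratio of HC over NC against the mean level in CPM (log axis) for precursors averaging 1 CPM or more, 1 point each, with the 6 cluster hairpins in black and related hairpins as squares. The dotted line marks 10 CPM, and the black points lie between -0.26 and 0.27, within the grey cloud.

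Ratios between members do not depend on how the libraries are scaled, and several of them differed between HC and NC by more than counting error. For every 1000 counts of mir-92a-1, mir-17 had 9.41 counts in HC (8.81 to 10.04) and 8.15 in NC (7.69 to 8.62). mir-20a had 8.79 (8.21 to 9.40) and 6.94 (6.52 to 7.38), and mir-18a had 2.90 (2.57 to 3.26) and 2.03 (1.81 to 2.27). The 3 hairpins with the miR-17 and miR-18 seeds thus stood higher against mir-92a-1 in HC. The miR-19 hairpins kept nearly the same proportion to it, 3.94 and 3.92 for mir-19a, and 26.8 (25.8 to 27.8) and 27.1 (26.3 to 28.0) for mir-19b-1.

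**Figure D3:**
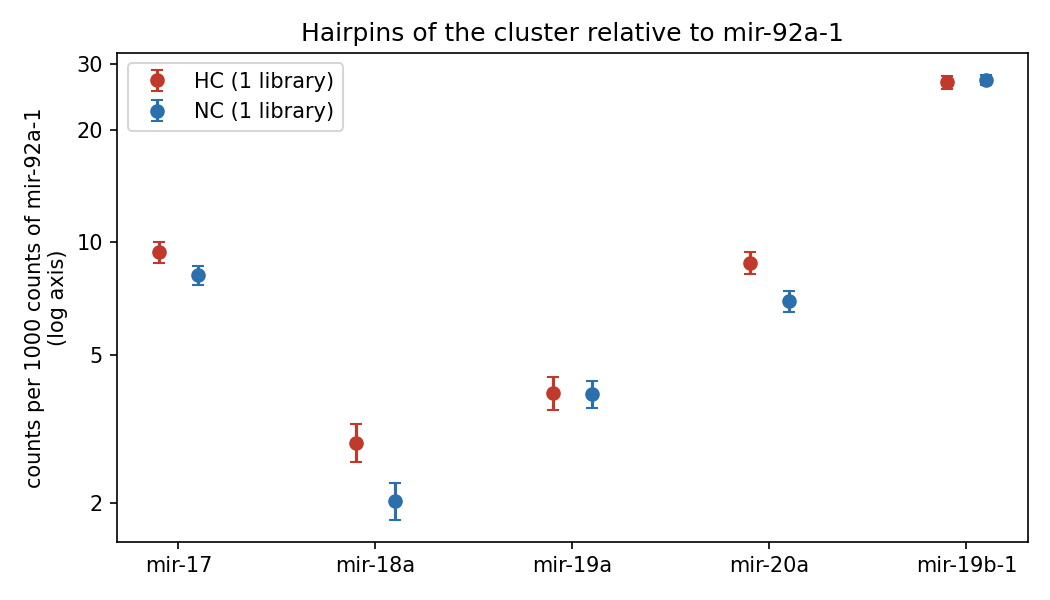
Counts of each hairpin per 1000 counts of mir-92a-1 (log axis) in HC and NC, with 95% counting intervals, 1 library per group. The intervals are apart for mir-17, mir-18a and mir-20a, higher in HC, and overlap for mir-19a and mir-19b-1.

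Summed by seed, the AAAGUGC hairpins (mir-17 and mir-20a) had a log2 ratio of 0.02 (-0.07 to 0.11), at 54.5 CPM in HC and 53.6 CPM in NC. The GUGCAAA hairpins (mir-19a and mir-19b-1) had -0.26 (-0.33 to -0.19), at 92.0 and 110.2 CPM. Against the GUGCAAA sum, the AAAGUGC sum was 1.22-fold higher in HC than in NC (log2 0.28, 0.17 to 0.40), and against mir-92a-1 it was 1.21-fold higher (0.27, 0.18 to 0.36). mir-18a was 1.44-fold higher against the GUGCAAA sum (0.53, 0.28 to 0.78) and 1.43-fold higher against mir-92a-1 (0.51, 0.28 to 0.75). The GUGCAAA sum and mir-92a-1 differed by -0.01 (-0.08 to 0.05), and the AAAGUGC sum and mir-18a by -0.24 (-0.50 to 0.01), both intervals holding 0. Single hairpins did not follow the seeds in every pair. mir-17 and mir-19a held equality, with 0.20 (-0.03 to 0.43), and mir-17 and mir-18a differed, with -0.31 (-0.58 to -0.04). Of the 6 pairs of seeds 4 excluded equality, as did 9 of the 15 pairs of single hairpins. Among the 5 hairpins that entered the comparison, 5 of 10 pairs did so, beside 78.3% of the 24531 pairs of the 222 precursors. Pairs that differ beyond counting error are thus common among these precursors, and the count for the cluster is not a feature of its own. How much such ratios vary between animals of 1 group was not measured.

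Among the 4 single-locus hairpins alone, the share of mir-19a was 15.7% in HC (14.3 to 17.25) and 18.6% in NC (17.26 to 20.02), by exact Clopper-Pearson intervals. The share of mir-18a was 11.6% (10.3 to 12.9) and 9.66% (8.64 to 10.7). mir-17 held 37.6% and 38.7%, and mir-20a 35.1% and 33.0%. The intervals of HC and NC overlapped for mir-17, mir-20a and mir-18a and were just apart for mir-19a.

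Part of the cluster cannot be separated from its paralog on chromosome X, the miR-106a-363 cluster, because miR-19b-3p and miR-92a-3p are produced from both. The hairpins are shown with the stretch that both copies share around the mature miRNA in capitals. They are from RefSeq (GRCm38), 5′ to 3′, on the plus strand for chromosome 14 and the minus strand for chromosome X (mir-19b-2 at chrX:52741983-52742066 and mir-92a-2 at chrX:52741838-52741928).
mir-19b-1: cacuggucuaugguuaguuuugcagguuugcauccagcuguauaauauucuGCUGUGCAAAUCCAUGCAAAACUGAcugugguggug
mir-19b-2: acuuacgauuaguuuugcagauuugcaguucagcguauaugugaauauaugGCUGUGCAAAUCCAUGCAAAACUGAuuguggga
mir-92a-1: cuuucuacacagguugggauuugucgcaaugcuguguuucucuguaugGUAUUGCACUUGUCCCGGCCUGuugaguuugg
mir-92a-2: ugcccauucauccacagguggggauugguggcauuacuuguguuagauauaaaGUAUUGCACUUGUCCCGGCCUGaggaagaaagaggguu

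The shared run was 25 bases for miR-19b and 22 bases for miR-92a, and in both the copies part at the first base after the annotated mature 3′ end. The 2 miR-19b hairpins carried nearly equal counts. mir-19b-2 had 2633 counts in HC, 12 more than mir-19b-1, and 4051 in NC, 19 more, a difference of 0.458% and 0.471%. The level of each miR-19b locus is therefore uncertain. The miR-92a hairpins were unequal in spite of the same mature sequence. mir-92a-1 had 13.0 times the counts of mir-92a-2 in HC (97865 against 7535) and 13.4 times in NC (148639 against 11115). mir-92a-2 held 7.15% of their joint counts in HC (6.99 to 7.31) and 6.96% in NC (6.83 to 7.08). The labels and files do not say how reads that match both loci were assigned, so these 2 levels are uncertain too. With the copies summed, the log2 ratio was -0.26 (-0.31 to -0.21) for miR-19b and -0.24 (-0.25 to -0.23) for miR-92a. Reads listed at both loci would be counted more than once in such a sum, and its interval would then be too narrow. The sum is thus no firmer than the value of a single copy.

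The chromosome X hairpins with a mature sequence of their own had few counts, between 1 and 84. mir-106a, whose product differs from miR-17-5p by U10A, had 13 counts in HC and 22 in NC. mir-20b, whose product differs from miR-20a-5p by U1C and U10C, had 10 and 36. mir-18b, whose product differs from miR-18a-5p by A18U and A20U, had 1 and 6. Each chromosome 14 hairpin thus carried far more counts than its counterpart, 70.8 times as many for mir-17 over mir-106a in HC and 55.0 times in NC, and 86.0 and 28.7 times for mir-20a over mir-20b. mir-363, which carries the miR-92a seed, had 60 counts in HC and 84 in NC, a log2 ratio of -0.13 (-0.63 to 0.37).

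mir-20b was lower in HC, with a log2 ratio of -1.49 (-2.67 to -0.45), while mir-106a at -0.40 (-1.51 to 0.65) and mir-18b at -2.23 (-7.75 to 0.82) held 0. Against its counterpart mir-20a, mir-20b differed between the libraries by a log2 ratio of ratios of 1.58 (0.53 to 2.77) in favour of mir-20a in HC. These values rest on 10 and 36 counts.

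**Figure D4:**
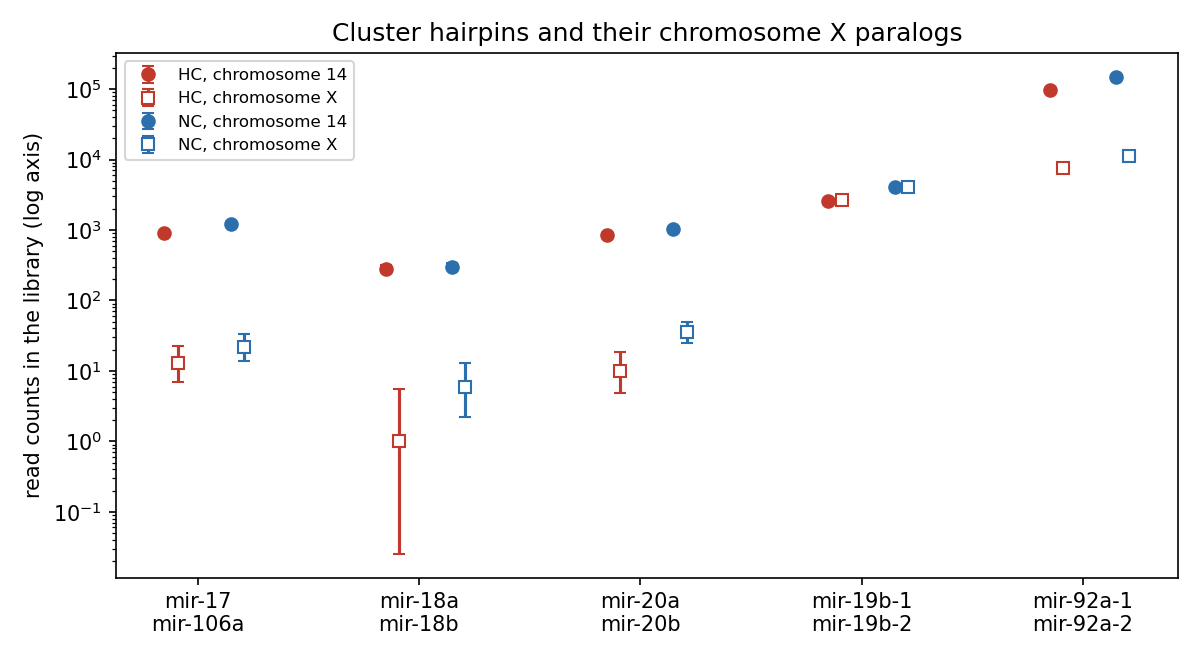
Read counts (log axis, not scaled for library size, 95% counting intervals) of each chromosome 14 hairpin (filled) and its chromosome X paralog (open) in HC and NC, 1 library each. The copies of miR-19b coincide, mir-92a-2 lies 13.0 and 13.4 times below mir-92a-1, and mir-106a, mir-18b and mir-20b have at most 36 counts.

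The second paralog cluster, miR-106b-25, lies within the gene of the replication helicase subunit Mcm7 on chromosome 5 (from 138165321 to 138165818 for its 3 hairpins). Its hairpins with the miR-17 seed had more counts than mir-17 and mir-20a in both libraries, both arms included. Its mature products are shown for comparison of the seed and the body with miR-17-5p and miR-92a-3p, with the seed in capitals, together with miR-92b-3p.
miR-106b-5p: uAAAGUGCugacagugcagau
miR-93-5p: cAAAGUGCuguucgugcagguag
miR-25-3p: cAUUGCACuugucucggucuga
miR-92b-3p: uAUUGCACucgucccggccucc

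mir-93 had 8128 counts in HC and 11127 in NC (249 and 266 CPM), and mir-106b had 2084 and 2399 (63.8 and 57.3 CPM). Over all listed hairpins with the AAAGUGC seed, mir-17 and mir-20a provided 14.8% of the counts in HC (14.2 to 15.5) and 14.2% in NC (13.6 to 14.7). RefSeq lists 7 mature miRNAs with this seed. The 7th, miR-6383, belongs to mir-6383, which had 0 counts in both libraries. For the AUUGCAC seed the order was the opposite. Its shares were taken without mir-92a-2, the chromosome X copy of miR-92a, which had 7535 counts in HC and 11115 in NC. mir-92a-1 provided 74.5% of the remaining counts in HC (74.3 to 74.7) and 76.4% in NC (76.2 to 76.6). Next came mir-25 at 1008 and 1066 CPM. With mir-92a-2 included the shares of mir-92a-1 would be lower, and the split of reads between the copies is uncertain. The miR-19 seed had no source outside miR-19a and miR-19b in the RefSeq table, and mir-18a held 99.6% and 98.1% of the counts with the miR-18 seed.

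Ratios varied among hairpins with the same seed, and some pairs were not resolved. mir-106b stood at 0.15 (0.07 to 0.24) and mir-93 at -0.10 (-0.14 to -0.05), with mir-17 and mir-20a between them. Set against mir-17, mir-93 held equality (log2 ratio of ratios 0.06, -0.07 to 0.19), whereas mir-106b did not (-0.19, -0.34 to -0.04, lower for mir-17 in HC). mir-25 was at -0.08 (-0.10 to -0.06) and mir-32 at 0.08 (-0.21 to 0.36), against -0.25 for mir-92a-1. mir-92a-1 stood lower against mir-25 in HC, at 3.33 counts per count of mir-25 in NC and 2.97 in HC (log2 ratio of ratios -0.16, -0.19 to -0.14). mir-92b, a single hairpin on chromosome 3 (89227116 to 89227198) whose product differs from miR-92a-3p by U10C and G21C over 21 positions, had the lowest ratio of the AUUGCAC hairpins, -1.32 (-1.51 to -1.13), with 293 counts in HC and 935 in NC. mir-92a-1 had 334 counts per count of mir-92b in HC and 159 in NC. mir-367 had 0 counts in both libraries and was given no ratio. The directions of mir-93 and mir-25 reversed with plain totals, to 0.038 and 0.053. The interval of mir-106b held 0 with the authors' denominators, at 0.04 (-0.04 to 0.13), and its value turned to -0.055 with all listed counts.

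**Figure D5:**
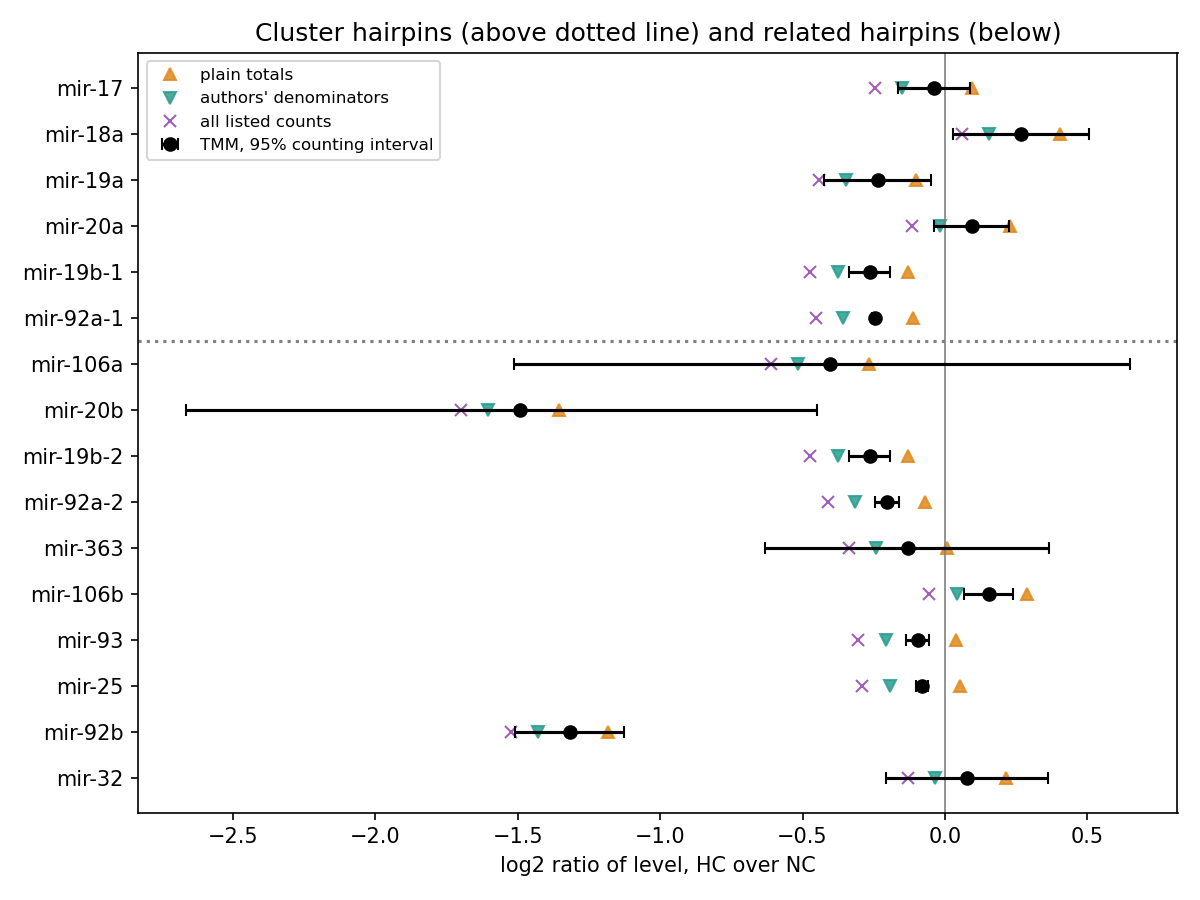
Log2 ratio of HC over NC for the 6 cluster hairpins (above the dotted line) and related hairpins (below), with 95% counting intervals under TMM scaling and the values under 3 other scalings. mir-19a, mir-19b-1 and mir-92a-1 lie left of 0 under all scalings drawn, mir-18a lies right of 0, and mir-18b (1 and 6 counts) and mir-367 (0 counts) are not drawn.

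The precursors outside these families whose level in both libraries was nearest to that of mir-17, by Euclidean distance of the log2 CPM values over 2 libraries, were mir-132 (distance 0.17), mir-421 (0.20) and mir-708 (0.26). Those nearest to mir-20a were mir-615 (0.10), mir-339 (0.14) and mir-29b-1 (0.18). With 2 libraries this likeness is one of abundance. mir-132 had 974 counts in HC and 1091 in NC, and mir-615 had 802 and 1020.

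Markers of other cell types moved in both directions between the libraries or had intervals that held 0, and each was detected in both. Of the erythrocyte markers 2 of 2 lay above 0, summing to 609 CPM in HC and 468 CPM in NC. The 4 leukocyte markers summed to 2303 and 2298 CPM, with the neutrophil-enriched mir-223 at 0.44 and the lymphocyte-enriched mir-150 at -0.75. The leukocyte markers mir-142a at 0.01 (-0.01 to 0.03) and mir-155 at -0.05 (-0.16 to 0.06) had intervals that held 0. The endothelial mir-126a had 11407 and 11144 CPM, and the 2 smooth muscle markers summed to 69344 and 76571 CPM. All 7 epithelial markers lay below 0, summing to 139 CPM in HC and 188 CPM in NC. Of the 222 compared precursors, 43.7% lay below 0 and 39.6% above. With plain totals those shares were 21.2% and 60.8%. The markers were counted without the 10 CPM filter of that comparison, and the epithelial mir-200a and mir-200c averaged less than 10 CPM. The part of these cell types in the values of the cluster was not tested.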

How the data were processed

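Small RNA of 2 libraries (HC and NC, grouped by their phenotype labels) was analysed. Extraction used Trizol with a mirVana kit, and libraries the TruSeq small RNA kit, per the labels' protocols. Per the submitters' processing notes, the build was mm10 and the tools included TopHat2 2.0.10, HTSeq 0.5.4 and CASAVA 1.8.2. How these were used, how reads with several alignments were treated and which miRNA annotation was counted is not stated there. The deposited read counts are whole numbers per hairpin, and 5 summary rows without a hairpin stayed out of library sizes. The rows named no_feature held 55.9% of listed counts in HC and 44.1% in NC. Listed counts here mean the precursor and no_feature counts together, without the other summary rows. The deposited RPM column is a signal scaled by the authors with an unstated denominator and served only for an alternative scaling.

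Counts were scaled by TMM (edgeR 4.0.16 in R 4.3.3, without an edgeR test). Log2 ratios of HC over NC carry no pseudocount and have exact conditional binomial 95% intervals, CPM levels have exact Poisson intervals, shares have Clopper-Pearson intervals, and ratios between hairpins have exact conditional odds ratio intervals (scipy 1.17.1). For all pairs of compared precursors the interval of the log odds ratio was a normal one. Without molecular identifiers, reads need not be independent molecules, and the intervals and detection limits cover counting error alone. The limit for a count of 0 was 3 counts per library. The comparison took precursors averaging 10 CPM or more, and a size rule asked for a fold of at least 2 with an interval that excludes equality. The procedure was run on simulated Poisson counts with set folds and known library totals, which tests neither TMM nor variation beyond counting error. No p-value was formed, since each group held 1 library.

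The members, the related hairpins, the cell type markers and the rules were chosen with earlier results of these data known. The rule named all 6 members, their paralogs and shared-seed hairpins, and the 3 precursors nearest in level to mir-17 and to mir-20a. Markers named singly, mir-6383 and the sums by seed were chosen after their values were seen. Sequences came from RefSeq, where all 18 listed hairpins matched by coordinates, and host genes from GENCODE M21. Alternatives were DESeq2 1.42.0 size factors, plain totals, the authors' denominators, totals without the 10 most abundant precursors, other filters, and, chosen after seeing the data, all listed counts.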

Additional observations from a re-analysis of the deposited data

Results flagged for a closer look

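Counts in the no_feature rows, which entered no comparison, made up 55.9% of the precursor and no_feature counts in HC, above the 44.1% in the control library. With these counts included in the library size, every log2 ratio of the cluster lies 0.21 lower than under TMM.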

How the results depend on the processing

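The sum of the 6 hairpins stayed lower in HC under each scaling. Its log2 ratio was -0.11 with plain totals, -0.35 with the authors' denominators, -0.22 with the 10 most abundant precursors left out of the totals, -0.24 with DESeq2 size factors and -0.45 with all listed counts, the last chosen after seeing the data. These scalings shift all precursors alike. It was -0.14 without mir-92a-1, and without mir-19b-1 and mir-92a-1 it turned to 0.0055, with an interval that holds 0, by construction from the hairpins left out. Per hairpin base, the share of mir-92a-1 was 95.6% in HC and 95.8% in NC. No hairpin of the cluster passed the size rule under any scaling or filter tried, nor at a fold of 1.5. The number whose interval lay below 0 ran from 2 to 4, and 1 lay above 0 with plain totals, with the totals without the 10 most abundant, and with a filter of 1 CPM or none. At 10 CPM or more, 2 of 5 lay below 0 with plain totals, beside 21.2% of all compared precursors. With the authors' denominators it was 4 of 5 beside 57.9%, and with all listed counts 3 of 4 beside 75.8%. Above 0 lay 60.8% of compared precursors with plain totals and 39.4% with the totals without the 10 most abundant. Among the paralogs, mir-93 was 0.038 and mir-25 0.053 with plain totals, and mir-106b was -0.055 with all listed counts. No paired analysis was possible because each group holds 1 library, and no replicate could be left out. Depth limits the chromosome X paralogs most, with 1 to 84 counts for those with a sequence of their own.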
